A study of Mus musculus with 14 samples.

Results

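Megf10, Mertk, Axl and 5 genes that work with them in the clearance of dying cells and synapses were followed in mouse neural stem cell cultures with and without the transcriptional repressor Cic, and with and without epidermal growth factor (EGF). The 8 genes were listed by name as phagocytic receptors (Megf10, Mertk, Axl, Tyro3), ligands (Gas6, Pros1) and engulfment partners (Gulp1, Abca1) of glia, and they are 8 of 23152 genes on the array. All 8 were above the limit set for dim genes and entered the test of 17364 genes. Megf10 came to attention through its difference between genotypes in EGF on these same arrays, and the list around it was chosen by that measured difference, so the values of that comparison are given for every one of the 8 genes as a description, with no p-value.

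RNA from 7 cultures, each from 1 animal, was hybridised to 14 Affymetrix arrays, 2 per culture. Per the labels, the cells were neonatal neural stem cells of the subventricular zone at postnatal day 4, and every culture, wild type included, had been transduced with adenoviral Cre. The 4 groups were Cic-/- (conditional knockout, Cicflox/flox) with EGF (n = 3), Cic-/- without EGF (n = 3), Cic+/+ (wild type control) with EGF (n = 4) and Cic+/+ without EGF (n = 4), each in NeuroCult proliferation medium for 24 hours. Clones 5 to 7 were Cic-/- and clones 1 to 4 were Cic+/+, and each clone gave 1 array with EGF and 1 without.

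MERTK, AXL and TYRO3 are the TAM family of receptor tyrosine kinases. They do not touch a dying cell directly: the secreted vitamin K-dependent proteins GAS6 and PROS1 bind phosphatidylserine exposed on its surface and bridge it to the receptor. MEGF10 is a transmembrane receptor with epidermal growth factor-like repeats, related to CED-1 of the worm Caenorhabditis elegans, and astrocytes use MEGF10 and MERTK to take up synapses in mice. GULP1 is the adaptor related to CED-6 of the same worm, which binds the tail of such receptors, and ABCA1 is a transporter that exports cholesterol and phospholipid and is related to worm CED-7.

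Values are log2 levels from the authors' RMA processing, and a gene's value is the median over the probesets that name that gene alone. A difference of 1 is a doubling. Levels of different genes are not compared, because probesets differ in brightness. Differences are given with the standard error of a limma fit of 4 group means over all 14 arrays, with p-values adjusted by Benjamini-Hochberg over 17364 genes and a threshold of 0.05. Array medians lay between 6.49 and 6.54, and arrays correlated at 0.93 to 0.97. Cic itself lay at 7.55, 7.67 and 7.40 in Cic-/- clones 5, 6 and 7 with EGF, against 9.42, 9.41, 9.69 and 9.50 in Cic+/+ clones 1 to 4, and at 7.27, 7.48 and 7.04 in Cic-/- clones without EGF, against 9.18, 9.31, 9.57 and 9.64 in Cic+/+ clones. It was therefore lower in every Cic-/- array, by -1.97 ± 0.15 with EGF (limma, adjusted p = 2.2e-05) and -2.16 ± 0.15 without (adjusted p = 9.5e-06). The fall was not even along the gene. Single Cic probesets differed by -7.01 to 0.77 with EGF, 19 of 23 lower, and by -7.40 to 0.37 without, 22 of 23 lower. Of 11 listed neural stem cell markers, 10 were measured, all above the dim limit of 4.40, with array means of 9.87 to 10.34 over the list. In each group all 8 listed oligodendrocyte progenitor markers and 11 or 12 of 12 astrocyte markers were above it too. These levels therefore do not tell neural stem cells from those cell types. A list of 14 microglial markers, the professional phagocytes of the brain, averaged 4.94 to 5.25 on every array, and 3 of the 14, Aif1, Ptprc and Ly86, were under the dim limit on average.

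CIC binds octamers of the form TGAATGAA, TGAATGGA, TCAATGAA or TCAATGGA, so the promoter windows of the genes were read for them. RefSeq windows of GRCm38.p6, 250 bases before to 50 after the start, were read for 7 of the 8 genes. Megf10 was the gene left out, so its promoter was not searched for any motif. None of the 7 windows held a CIC octamer on either strand, against 3.84% of 32851 windows of all genes. None held the AP-1 letters TGANTCA either, against 7.81% of all windows. The GC box GGGCGG stood in 7 of 7, against 35.7% of all windows. The 7 windows were also rich in G and C, at 57.67% (Gulp1) to 73.33% (Tyro3), against a median of 52.67% over all windows. The GC box share was not compared with windows of like G and C content, so it is not read as a trait of these genes. These are matches of letters in 1 short window, and sites elsewhere in a gene were not searched. The windows of the TAM receptor and the ligand whose genotypes did not overlap in either medium, and of Abca1, are printed with the matches to a searched motif in capitals. GC boxes read CCGCCC where they lie on the opposite strand.
Tyro3, chr2:119799264-119799563, plus strand: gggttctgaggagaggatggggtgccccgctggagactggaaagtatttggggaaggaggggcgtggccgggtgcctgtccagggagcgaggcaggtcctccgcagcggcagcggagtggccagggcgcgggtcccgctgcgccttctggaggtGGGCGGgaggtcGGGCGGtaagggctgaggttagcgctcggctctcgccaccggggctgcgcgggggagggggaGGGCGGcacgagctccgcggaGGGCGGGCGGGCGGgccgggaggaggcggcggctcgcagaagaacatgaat
Gas6, chr8:13494486-13494785, minus strand: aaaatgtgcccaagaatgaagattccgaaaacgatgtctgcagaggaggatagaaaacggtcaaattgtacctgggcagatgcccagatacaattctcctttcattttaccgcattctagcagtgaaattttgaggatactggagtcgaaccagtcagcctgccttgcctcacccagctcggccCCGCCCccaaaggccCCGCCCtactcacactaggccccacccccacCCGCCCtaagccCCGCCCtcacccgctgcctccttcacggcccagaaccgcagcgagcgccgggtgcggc
Abca1, chr4:53159846-53160145, minus strand: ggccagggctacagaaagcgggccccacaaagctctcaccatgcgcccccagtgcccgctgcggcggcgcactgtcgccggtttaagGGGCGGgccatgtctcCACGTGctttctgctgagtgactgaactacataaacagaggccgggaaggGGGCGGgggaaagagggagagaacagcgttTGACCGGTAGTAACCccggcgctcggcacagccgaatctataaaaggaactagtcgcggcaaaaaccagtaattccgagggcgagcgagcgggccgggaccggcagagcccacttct

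In the Tyro3 window, 6 GC boxes lie between 96 bases before and 7 bases after the start used for that window, and some of them overlap one another. The RefSeq gene Tyro3 itself begins before this window, at position 119797740, so the window does not cover that end of the gene. In the Gas6 window, 4 GC boxes lie between 66 and 8 bases before the start, all on the opposite strand. The Abca1 window has GC boxes at 163 and 97 bases before the start and an E-box, CACGTG, at 147 bases before it, a motif in 7.15% of all windows. It also holds, 67 bases before the start, a DR4 element, the direct repeat through which liver X receptors act on the human ABCA1 promoter. Its letters were chosen for this promoter and occurred in 4 of 32851 windows.

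Loss of Cic went with higher Megf10 in both media. With EGF, Megf10 lay at 8.85, 8.15 and 8.98 in Cic-/- clones 5, 6 and 7, against 7.56, 6.84, 6.88 and 6.17 in Cic+/+ clones 1 to 4. Without EGF it lay at 9.25, 9.14 and 9.37 in Cic-/- clones, against 8.07, 7.95, 8.22 and 6.97 in Cic+/+ clones. Every Cic-/- array was above every Cic+/+ array of the same medium, and clone 4 was the lowest Cic+/+ clone in both media. The difference was 1.80 ± 0.33 with EGF, a 3.48-fold higher level, and 1.45 ± 0.33 without EGF, a 2.73-fold higher level. Without EGF, on arrays other than those that first pointed to the gene but from the same 7 animals, the adjusted p was 0.067 in limma, and 0.044 with clone as a random block. That call was lost with the block when any of clones 2 to 7 was left out (adjusted p 0.079 to 0.130) and was kept at 0.034 without clone 1. Without clone 4, which also stood apart from the other clones in Xist (4.73 and 3.83, against 11.96 to 12.57), Megf10 differed by 1.57 with EGF and 1.17 without.

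The probesets along Megf10 moved together. With EGF, 22 of 22 were higher in Cic-/- cells, by 0.70 to 3.16, and 19 of these differed by more than 1. Without EGF, 21 of 22 were higher, the exception being the probeset under the dim limit, at -0.00. The brightest probeset differed by 1.07 with EGF and 0.94 without, below the median over the 22 probesets, 1.79 and 1.44.

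Tyro3, the TAM receptor most tied to neurons and myelin, was the other receptor with higher levels in Cic-/- cells. It lay at 7.54, 7.28 and 7.28 in Cic-/- clones with EGF, against 6.35, 6.28, 6.27 and 6.50 in Cic+/+ clones, and at 7.36, 7.75 and 6.80 in Cic-/- clones without EGF, against 6.47, 6.20, 6.65 and 6.79 in Cic+/+ clones. The groups did not overlap in either medium, although Cic-/- clone 7 without EGF stood only just above Cic+/+ clone 4. The difference was 1.01 ± 0.20 with EGF and 0.77 ± 0.20 without (limma, adjusted p = 0.130). Without clone 7 the difference without EGF was 1.02, with an adjusted p of 0.029, the only call among 18 alternatives (adjusted p 0.029 to 0.751, differences from 0.27). In each medium 19 of 22 Tyro3 probesets were higher in Cic-/- cells, but the brightest differed by 0.06 with EGF and 0.27 without.

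Gas6, the ligand that binds all 3 TAM receptors, had the opposite order. It lay at 7.82, 8.03 and 7.56 in Cic-/- clones with EGF, against 8.64, 8.97, 8.09 and 8.32 in Cic+/+ clones, and at 7.29, 7.22 and 7.21 in Cic-/- clones without EGF, against 8.0, 7.92, 7.78 and 8.20 in Cic+/+ clones. Every Cic-/- array was below every Cic+/+ array of its medium. The difference was -0.70 ± 0.19 with EGF and -0.73 ± 0.19 without (limma, adjusted p = 0.130). With EGF 15 of 15 probesets were lower in Cic-/- cells, and without EGF 14 of 15 were.

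Megf10, Tyro3 and Gas6 were thus 3 of the 8 genes whose genotypes did not overlap, in the same direction, in both media, beside 2.68% of all genes tested. With EGF alone the groups of 3 of 8 genes did not overlap, beside 11.7% of all genes, and 1 of the 8, Megf10, passed the adjusted threshold, beside 0.317%. Nothing is read from these 3 counts, since each uses the comparison by which the genes were chosen. Without EGF the groups of 4 of 8 genes did not overlap, beside 9.38% of all genes, in the same 7 animals. Without EGF 0 of the 8 passed in limma, beside 0.553% of all genes, while 4 of the 8 had an unadjusted p under 0.05, beside 10.8%. With clone as a random block 1 of the 8 passed without EGF, beside 0.697%. The median difference over the 8 genes was 0.12 with EGF and -0.15 without, against 0.02 and -0.00 over all genes.

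**Figure D1:**
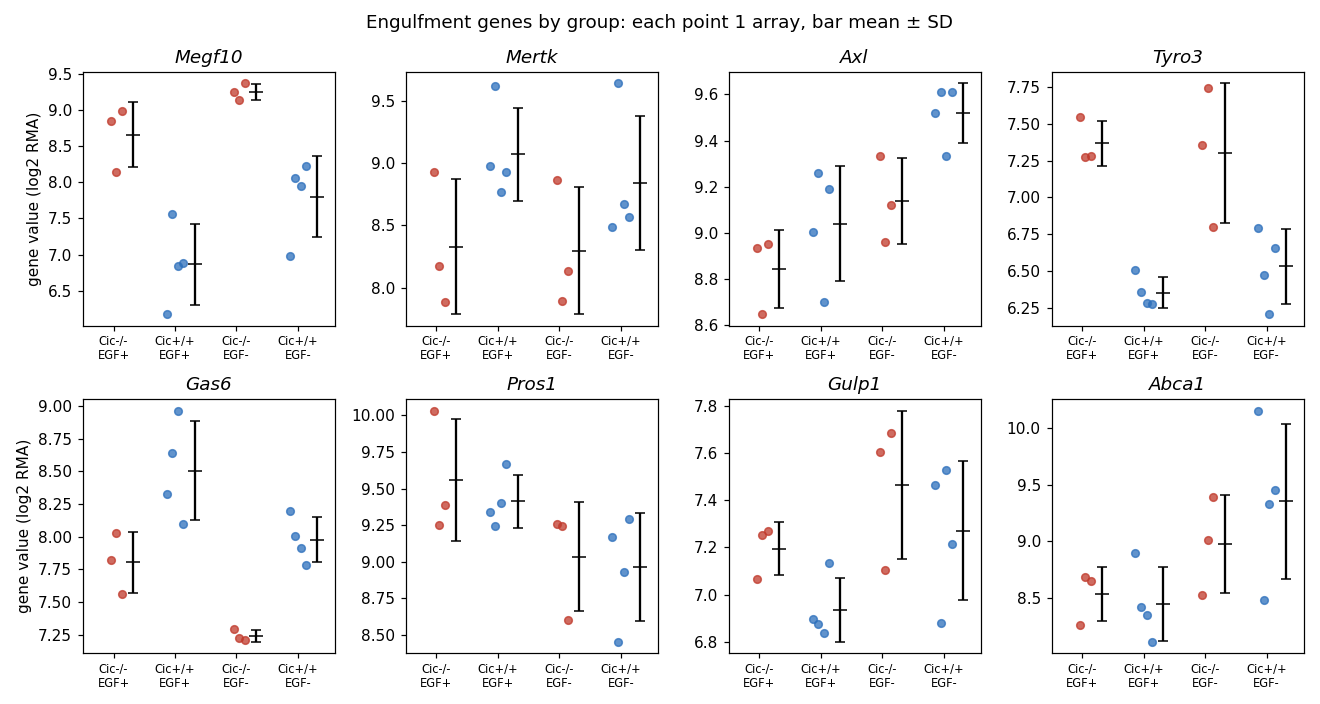
Log2 RMA level (vertical axis, a separate scale for each gene) of the 8 genes in the 4 groups, Cic-/- in red and Cic+/+ in blue, each point 1 array, with the group mean ± SD beside it. In each medium the red points of Megf10 and Tyro3 all lie above the blue ones, and those of Gas6 all lie below.

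Axl, which prefers GAS6 as its ligand and marks reactive and inflammatory states, lay at 8.93, 8.65 and 8.95 in Cic-/- clones with EGF, against 9.26, 8.70, 9.19 and 9.01 in Cic+/+ clones, and these groups overlapped. Without EGF it lay at 9.33, 8.96 and 9.12 in Cic-/- clones, against 9.61, 9.33, 9.61 and 9.52 in Cic+/+ clones, where the lowest Cic+/+ array stood just above the highest Cic-/- array. The difference was -0.20 ± 0.16 with EGF and -0.38 ± 0.16 without (limma, adjusted p = 0.412). When each probeset was centred before the median was taken, it shrank to -0.12 and -0.18. Axl lies near Cic on chromosome 7, at 25756500 to 25788924, with Cic at 25267658 to 25294159 (RefSeq, GRCm38.p6). Any part of this nearness in the Axl genotype difference was not tested.

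Mertk, the TAM receptor of steady-state clearance by macrophages and astrocytes, needs its probesets to be read. Its gene value lay at 8.93, 8.17 and 7.88 in Cic-/- clones with EGF, against 9.62, 8.76, 8.93 and 8.98 in Cic+/+ clones, and at 8.87, 7.90 and 8.13 in Cic-/- clones without EGF, against 9.64, 8.67, 8.57 and 8.49 in Cic+/+ clones. The gene value differed by -0.74 ± 0.33 with EGF and -0.54 ± 0.33 without (limma, adjusted p = 0.602). Yet the median over its 16 probesets of their own differences was -0.02 with EGF and 0.10 without. Only 2 probesets, chosen here after their values were seen, differed by more than 1. Probeset 17376015 lay at 8.42, 6.18 and 5.01 in Cic-/- clones 5, 6 and 7 with EGF, against 8.89, 8.38, 8.67 and 8.61 in Cic+/+ clones. Probeset 17376011 lay at 9.17, 7.33 and 7.53 in the same Cic-/- clones, against 10.31, 9.32, 9.18 and 9.44 in Cic+/+ clones. Both were low in clones 6 and 7 and not, or less so, in clone 5. The median of the other 14 probesets differed by -0.29 with EGF and -0.03 without, and with every probeset centred before the median was taken Mertk differed by -0.12 and -0.01. The array thus shows 2 stretches of Mertk that were lower in 2 of 3 Cic-/- clones, while the median over its probesets stayed near 0.

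**Figure D2:**
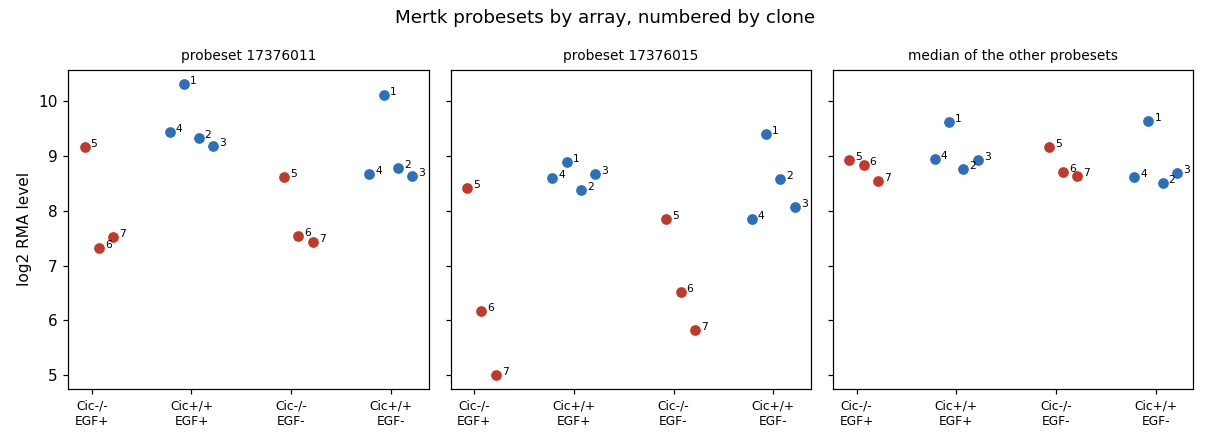
Log2 RMA level of probeset 17376011, probeset 17376015 and the median of the other 14 Mertk probesets, by group, each point 1 array numbered by its clone, Cic-/- in red and Cic+/+ in blue. Clones 6 and 7 fall well below the other clones on the first 2 panels and not on the third.

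Pros1, the other TAM ligand, which binds TYRO3 and MERTK and also serves as the anticoagulant protein S, overlapped between genotypes. It lay at 10.03, 9.25 and 9.39 in Cic-/- clones with EGF, against 9.25, 9.40, 9.67 and 9.34 in Cic+/+ clones, and at 9.26, 9.24 and 8.61 in Cic-/- clones without EGF, against 8.46, 8.93, 9.29 and 9.17 in Cic+/+ clones. The difference was 0.14 ± 0.24 with EGF and 0.07 ± 0.24 without (limma, adjusted p = 0.956, 95% interval -0.44 to 0.59).

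Gulp1 lay at 7.06, 7.25 and 7.27 in Cic-/- clones with EGF, against 6.87, 6.84, 7.13 and 6.90 in Cic+/+ clones, and at 7.60, 7.10 and 7.69 in Cic-/- clones without EGF, against 6.88, 7.53, 7.21 and 7.46 in Cic+/+ clones. The groups overlapped in both media, and the difference was 0.26 ± 0.18 with EGF and 0.19 ± 0.18 without (limma, adjusted p = 0.778). With each probeset centred first it was 0.40 with EGF and 0.46 without.

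Abca1 lay at 8.26, 8.68 and 8.65 in Cic-/- clones with EGF, against 8.42, 8.35, 8.11 and 8.89 in Cic+/+ clones, and at 8.53, 9.01 and 9.39 in Cic-/- clones without EGF, against 8.48, 9.33, 9.45 and 10.15 in Cic+/+ clones. The genotypes overlapped in both media, with a difference of 0.09 ± 0.32 with EGF and -0.37 ± 0.32 without (limma, adjusted p = 0.747). Among its 39 probesets, 33 were higher in Cic-/- cells with EGF and 36 were lower without EGF, and the median over all 39 was 0.08 with EGF and -0.50 without.

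**Figure D3:**
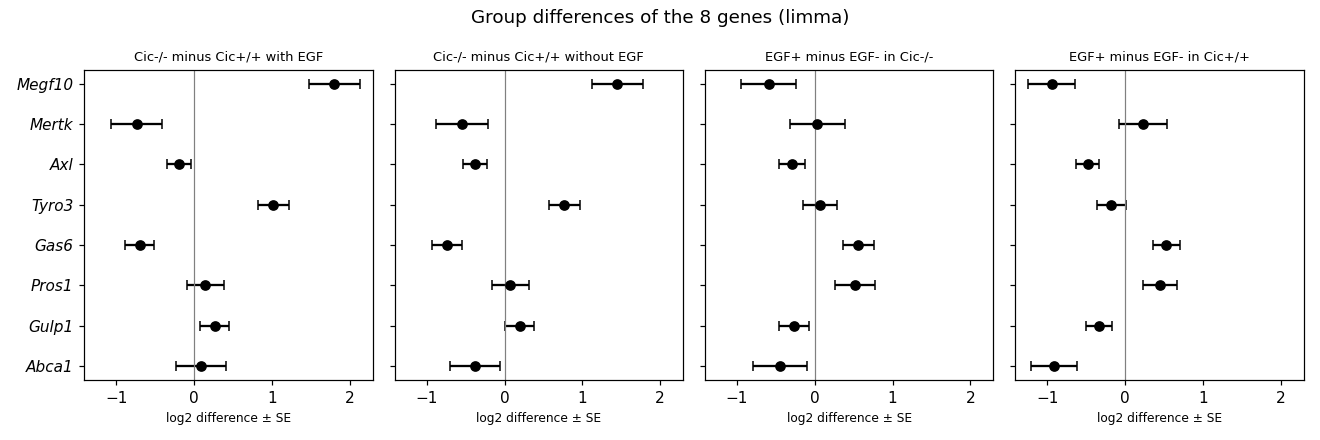
Group differences of the 8 genes in 4 comparisons, on the log2 scale, each point the limma estimate and each bar its standard error. In the genotype comparisons Megf10 and Tyro3 lie to the right of 0 and Mertk and Gas6 to the left, and in the EGF comparisons Megf10, Axl, Gulp1 and Abca1 lie to the left and Gas6 and Pros1 to the right.

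The sign of the EGF difference was shared by all clones for 5 of the 8 genes. In all 7 clones the array with EGF was lower for the receptors Megf10 and Axl and the transporter Abca1, and higher for both TAM ligands, Gas6 and Pros1. Of all genes tested, 7.43% were lower and 6.04% were higher in all 7 clones, and together 13.5% kept 1 sign, against 5 of the 8 genes. In limma without a block, 0 of the 8 passed in either genotype, beside 0.898% of all genes in Cic+/+ and 0.19% in Cic-/- cells, while 4 of the 8 in Cic+/+ and 1 of the 8 in Cic-/- cells had an unadjusted p under 0.05, beside 12.5% and 9.8%. With clone as a random block, which compares the arrays of a clone with each other, 3 of the 8 passed in Cic+/+ cells, beside 5.17% of all genes, and 0 in Cic-/- cells, beside 2.08%. Those 3 were Megf10, Axl and Abca1, and Megf10 is one of them on arrays that also entered the comparison through which it was found. The calls rest on few clones: without clone 2 or clone 3 none of the 3 passed with the block, without clone 4 only Megf10 did, and without clone 7 Megf10 and Axl did.

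The EGF difference of Axl was -0.40, -0.31 and -0.17 in Cic-/- clones 5, 6 and 7, and -0.35, -0.63, -0.42 and -0.51 in Cic+/+ clones 1 to 4. Every clone was thus lower with EGF, and in each genotype the arrays with and without EGF did not overlap, a pattern seen in 13% of all genes in Cic-/- and 8.39% in Cic+/+ cells. In Cic-/- cells they came close, with clone 7 at 8.951 with EGF and clone 6 at 8.962 without. The mean EGF difference was -0.29 ± 0.12 in Cic-/- clones (SD, n = 3) and -0.48 ± 0.12 in Cic+/+ clones (SD, n = 4). For the Cic+/+ mean limma gave an adjusted p of 0.169, and 0.030 with clone as a random block. Centring each probeset gave a larger difference, -0.57 in Cic-/- cells and -0.63 in Cic+/+ cells, with 20 of 22 and 21 of 22 probesets lower.

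The EGF difference of Abca1 was -0.27, -0.33 and -0.74 in Cic-/- clones, and -0.06, -0.98, -1.34 and -1.26 in Cic+/+ clones. Clone 1 barely moved, while the other 3 Cic+/+ clones lay between -0.98 and -1.34. The mean was -0.45 ± 0.26 in Cic-/- clones (SD, n = 3) and -0.91 ± 0.59 in Cic+/+ clones (SD, n = 4). The limma adjusted p in Cic+/+ cells was 0.194, and 0.039 with clone as a random block; without clone 1 the difference was -1.19, with a blocked p of 0.0079. In Cic+/+ cells 37 of 39 probesets were lower with EGF, 33 of them by more than 1, and in Cic-/- cells 36 of 39 were lower, 1 by more than 1. The median over all 39 was -0.49 in Cic-/- and -1.32 in Cic+/+ cells.

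The EGF difference of Megf10 was -0.39, -0.99 and -0.39 in Cic-/- clones, and -0.51, -1.11, -1.34 and -0.80 in Cic+/+ clones. Its mean was -0.59 ± 0.35 in Cic-/- clones (SD, n = 3) and -0.94 ± 0.36 in Cic+/+ clones (SD, n = 4). The mean level of Cic-/- arrays with EGF was above that of Cic+/+ arrays without EGF by 0.86, a gap that was not tested. Single arrays overlapped, with Cic-/- clone 6 at 8.15 with EGF and Cic+/+ clone 3 at 8.22 without. The Cic-/- arrays with EGF are also among those through which Megf10 was found. In Cic+/+ cells 22 of 22 probesets were lower with EGF, and in Cic-/- cells 20 of 22 were.

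The ligands went the other way. The EGF difference of Gas6 was 0.53, 0.80 and 0.35 in Cic-/- clones, and 0.64, 1.05, 0.31 and 0.13 in Cic+/+ clones, with means of 0.56 ± 0.23 (SD, n = 3) and 0.53 ± 0.40 (SD, n = 4). The adjusted p was 0.35 in Cic-/- and 0.202 in Cic+/+ cells in limma, and 0.106 and 0.055 with clone as a random block. The EGF difference of Pros1 was 0.77, 0.01 and 0.78 in Cic-/- clones, and 0.79, 0.47, 0.37 and 0.17 in Cic+/+ clones. Clone 6 was at 0.01, so its sign carries little weight. Neither Pros1 difference passed (limma adjusted p = 0.547 in Cic-/- and 0.430 in Cic+/+ cells), although 16 of 16 probesets were higher with EGF in each genotype.

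Tyro3 and Mertk showed no shared direction with EGF. Tyro3 differed by 0.19, -0.47 and 0.48 in Cic-/- clones and -0.12, 0.08, -0.38 and -0.29 in Cic+/+ clones (limma adjusted p = 0.960 and 0.763). Mertk differed by 0.07, 0.28 and -0.25 in Cic-/- clones and -0.02, 0.09, 0.36 and 0.49 in Cic+/+ clones (adjusted p = 0.991 and 0.831). Gulp1 differed by -0.54, 0.15 and -0.42 in Cic-/- clones and -0.00, -0.69, -0.08 and -0.57 in Cic+/+ clones, and neither mean passed (adjusted p = 0.726 and 0.438). Its probesets were more uniform than its gene value, 15 of 17 lower with EGF in Cic-/- and 17 of 17 in Cic+/+ cells, and with each probeset centred Gulp1 differed by -0.63 and -0.57.

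**Figure D4:**
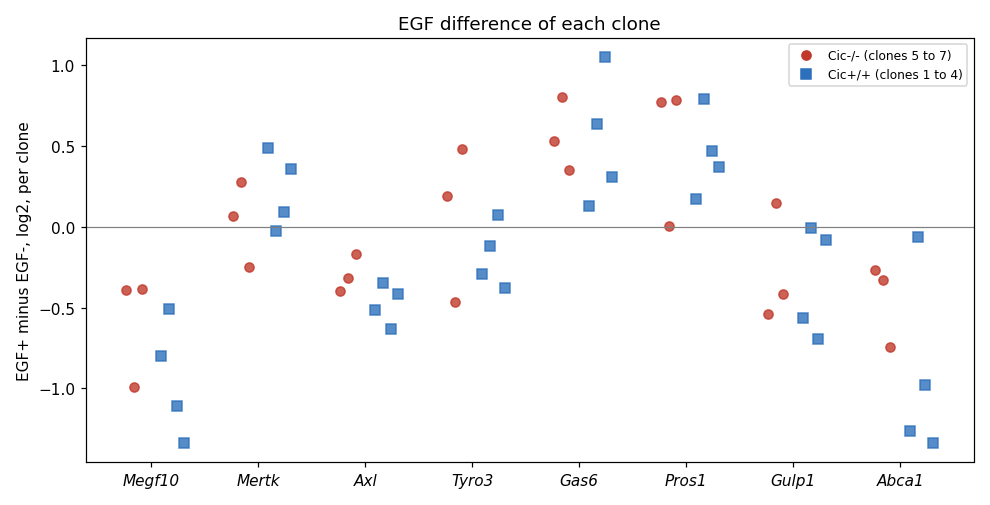
EGF+ minus EGF- difference of each clone on the log2 scale for the 8 genes, Cic-/- clones 5 to 7 as red circles and Cic+/+ clones 1 to 4 as blue squares. All 7 points lie below 0 for Megf10, Axl and Abca1 and above 0 for Gas6 and Pros1.

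The EGF differences were compared between genotypes by an interaction term, the EGF difference in Cic-/- minus that in Cic+/+ cells. None of the 8 genes passed in limma, beside 0.00576% of all genes, or with clone as a random block, beside 0.0403%, and none had an unadjusted p under 0.05, beside 2.86% of all genes. Abca1 had the widest gap, 0.46 ± 0.45 (95% interval -0.51 to 1.44), and Megf10 the next, 0.35 ± 0.46 (-0.64 to 1.34). For Axl the interval was -0.30 to 0.67 and for Gas6 -0.55 to 0.61. These intervals, from the fit without a block, leave room for differences between genotypes as large as the EGF differences themselves. With clone as a random block the standard errors were smaller, 0.36 for Abca1, 0.35 for Megf10, 0.18 for Axl and 0.23 for Gas6.

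Because the arrays measure bulk cultures, fewer cells of a type and less RNA per cell cannot be told apart. Astrocyte markers moved with EGF in the same direction as Megf10, Axl and Abca1. The 12 listed astrocyte markers averaged 9.27 to 9.60 in Cic-/- arrays with EGF, against 10.004 to 10.11 in Cic-/- arrays without, and 9.08 to 9.60 in Cic+/+ arrays with EGF, against 10.08 to 10.44 in Cic+/+ arrays without. In Cic-/- cells 11 of 12 were lower with EGF, with a list median of -0.46, and 0 passed in limma, 2 with the block. In Cic+/+ cells 12 of 12 were lower, with a list median of -0.80, and 3 passed in limma, Aqp4, Gja1 and S100b, 7 with the block. These counts and those of the next lists stand beside the shares of all genes. In limma 0.19% of all genes passed in Cic-/- and 0.898% in Cic+/+ cells, and with the block 2.08% and 5.17%. Oligodendrocyte lineage markers were lower with EGF too. Of 8 progenitor markers, 8 were lower in Cic-/- and 5 in Cic+/+ cells, with list medians of -0.41 and -0.14, and Gpr17 passed in both, at -2.46 ± 0.34 and -2.71 ± 0.29 (limma, adjusted p = 0.013 and 5.4e-04). Of 7 measured myelinating markers, 5 were lower in Cic-/- cells, with a list median of -0.03 with 0 passing, and 7 in Cic+/+ cells, with a list median of -1.68 with 5 passing, up to -3.52 ± 0.19 for Enpp6. Of 8 neuroblast and neuron markers, 6 were lower in Cic-/- and 5 in Cic+/+ cells, with 0 passing in limma and 2 and 1 with the block. The part of these markers in the EGF results was not tested.

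Between genotypes the astrocyte list did not move with Megf10: 7 of 12 markers were higher in Cic-/- cells with EGF and 3 of 12 without, and 0 passed in either medium. Oligodendrocyte progenitor markers averaged 8.83 to 9.42 in Cic-/- and 9.61 to 10.21 in Cic+/+ arrays with EGF, and 9.69 to 10.49 in Cic-/- and 10.13 to 10.62 in Cic+/+ arrays without. Of these 8 markers, 7 were lower in Cic-/- cells with EGF and 5 without. In limma Pdgfra alone passed with EGF (-2.61 ± 0.38, adjusted p = 0.0082), beside 0.317% of all genes, and 0 passed without. Of 7 measured markers of myelinating oligodendrocytes, 6 were lower in Cic-/- cells in each medium. List medians were -0.22 with EGF and -2.35 without. Without EGF 5 of these 7 passed, by up to -3.95 for Enpp6, beside 0.553% of all genes, and with EGF 0 passed. The part of these markers in the genotype differences was not tested.

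**Figure D5:**
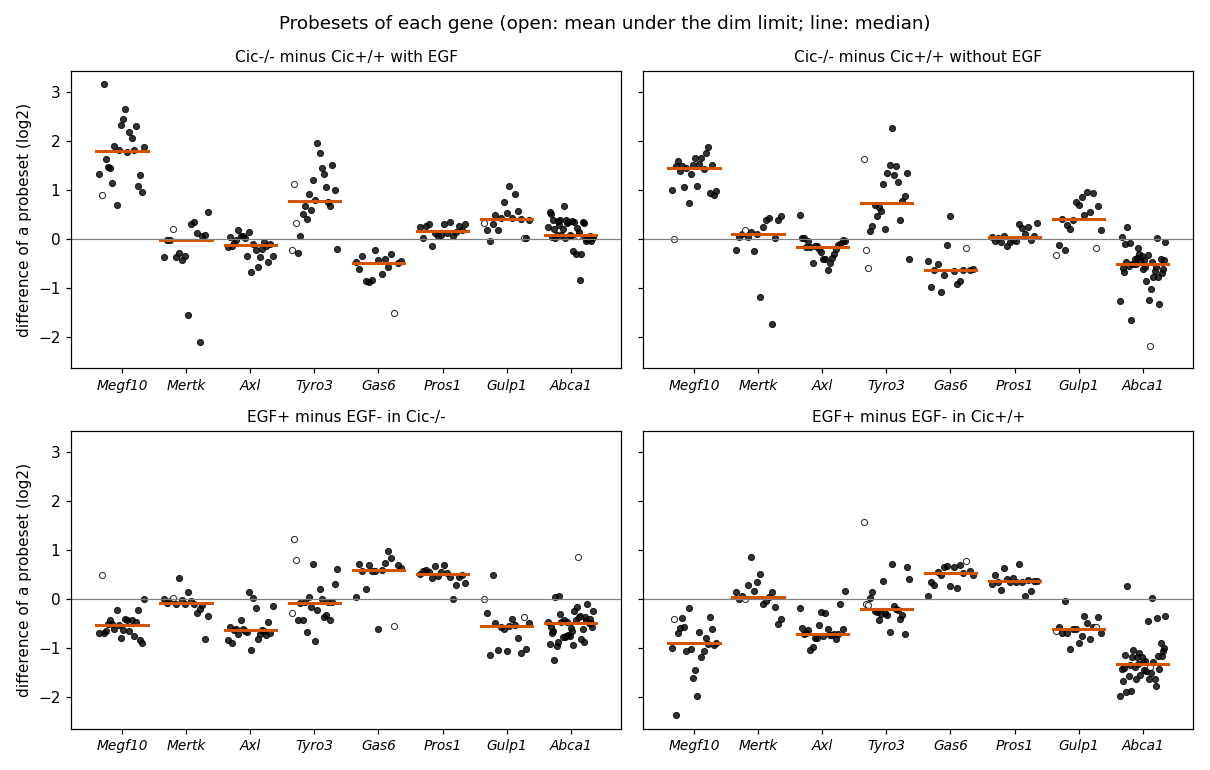
Log2 differences of single probesets of the 8 genes in 4 comparisons, each point 1 probeset, open where its mean level is under the dim limit, with the median as an orange line. Megf10 lies above 0 throughout between genotypes with EGF, Mertk has 2 low outliers, and with EGF in Cic+/+ cells nearly all Abca1 probesets lie below -1.

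The wider engulfment machinery was read through 7 lists of 154 genes, of which 149 were on the array and 141 were tested. With EGF, 0 of the 141 differed between genotypes at the adjusted threshold of limma, with or without the block. Without EGF 2 did, 1.42%, against 0.553% of all genes. Cd24a, a surface glycoprotein that keeps phagocytes from engulfing, was higher in Cic-/- cells (11.17, against 9.85 in Cic+/+ cells, a difference of 1.33 ± 0.20, adjusted p = 0.0069). Plcg2, a phospholipase downstream of phagocytic receptors, was lower (5.21, against 6.46, a difference of -1.25 ± 0.23, adjusted p = 0.023). In Cic+/+ cells EGF changed 5 of the 141, 3.55%, against 0.898% of all genes, and 16 with the block, 11.3%, against 5.17% of all genes. In Cic-/- cells it changed 1, 0.709%, against 0.19% of all genes, and 4 with the block, 2.84%, near the 2.08% of all genes.

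Among bridging and opsonin proteins, Clu, the secreted chaperone clusterin, fell with EGF in Cic+/+ cells (7.91 with EGF, against 9.21 without, -1.29 ± 0.18, adjusted p = 0.0037), the only one of 20 to pass. Apoe, the main lipid carrier of astrocytes, lay at 7.67 with EGF and 9.63 without, a difference of -1.96 ± 0.62 that passed with the block alone (adjusted p = 0.035, against 0.174). Thbs2, a thrombospondin, differed by 1.28 ± 0.31 and also passed with the block alone (0.0061, against 0.072), as did Anxa1, a phosphatidylserine-binding annexin, at 1.18 ± 0.42 (0.046, against 0.247). In Cic-/- cells 2 of the 20 passed with the block alone, Anxa1 at 1.81 ± 0.49 (0.021, against 0.192) and Clu at -0.97 ± 0.21 (0.013, against 0.072). In the signalling list of 31 tested genes, Syk, a kinase of phagocytic receptors, rose with EGF in Cic+/+ cells (7.33, against 5.84, 1.49 ± 0.31, adjusted p = 0.038). Elmo1, which with DOCK proteins activates RAC for engulfment, fell (7.81, against 8.84, -1.04 ± 0.18, adjusted p = 0.015), as did Plcg2 (5.24, against 6.46, -1.22 ± 0.21, adjusted p = 0.014). S1pr1, a receptor for the find-me lipid sphingosine 1-phosphate, fell as well (7.52, against 8.44, -0.92 ± 0.20, adjusted p = 0.046). In Cic-/- cells EGF raised Pik3cd, a catalytic subunit of the PI3 kinase that TAM receptors recruit (5.14 with EGF, against 3.88 without, 1.26 ± 0.23, adjusted p = 0.041), from a mean under the dim limit.

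The other lists gave no call in limma without a block. Of 19 tested engulfment receptors, the relative of MEGF10 named Megf11 had the smallest p between genotypes with EGF, at 7.94 in Cic-/- and 7.26 in Cic+/+ cells (0.67 ± 0.37, adjusted p = 0.550). The scavenger receptor gene Cd36 had it without EGF, at 5.35 in Cic-/- and 6.98 in Cic+/+ cells (-1.63 ± 0.50, adjusted p = 0.207). With EGF in Cic+/+ cells, the integrin subunit gene Itgb3 (-1.03 ± 0.26) and Lrp1, the receptor of apolipoprotein E and calreticulin (-0.74 ± 0.26), passed with the block alone (adjusted p = 0.0091 and 0.041). Of 17 tested lipid efflux genes 14 were lower with EGF in Cic+/+ cells, with a list median of -0.26 against -0.00 over all genes, and Abca5 (-0.72 ± 0.18) and Abca3 (-0.48 ± 0.15) passed with the block alone (adjusted p = 0.0079 and 0.039). Of 23 phagosome and lysosome genes 20 were lower, with a list median of -0.17, and 0 passed with or without the block.

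Across the 14 arrays, 2 from each of 7 clones, the 5 genes whose levels ran most like Megf10 were Pcdhb9, Ssh1, Pcdhb2, Pcdhb11 and Gjc3, with Pearson r of 0.92, 0.92, 0.91, 0.91 and 0.90. After the group means were taken out, r was 0.68, 0.72, 0.49, 0.60 and 0.57. The first values thus include group differences, among them the genotype difference through which Megf10 was found. Of the 5 genes 3, the protocadherin genes, lie on the chromosome that holds Megf10, as 2.61% of all tested genes do. By their symbols these 3 belong to 1 gene family, so they do not count as 3 separate genes against that share. Pcdhb2 lay at 9.48 in Cic-/- and 7.45 in Cic+/+ cells with EGF and at 10.03 in Cic-/- and 7.95 in Cic+/+ cells without. For Mertk the nearest were Psmd13 (r = 0.95), Mavs (0.91), which shares its chromosome, and Rpl37 (0.90). For Axl they were Sorbs3 (0.88), Ghitm (0.88) and Atad1 (0.87). Within the 8 genes, Megf10 ran with Tyro3 (r = 0.70) and against Gas6 (r = -0.84), and these arrays share clones and groups. Both r values include the genotype differences already described for these genes, so they are no separate result.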

How the data were processed

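The RNA of 14 samples in 4 groups, 3 or 4 mouse cultures each, was measured on Affymetrix arrays. Per the submitters' processing notes, the authors summarised the arrays with RMA, and the deposited values are log2 levels per probeset. Neither an RMA version nor the build behind the array's probesets is known here. No columns of other samples were present.

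Of 269751 probesets, 233753 named 1 gene, 5106 named several and 30892 had no gene listed. The median over the probesets that name 1 gene alone gave 23152 gene values. Their symbols were matched to RefSeq (GRCm38.p6): 20875 as written and 2202 by synonym, while 75 stayed unmatched. The lowest 25% of genes by mean level (5788 genes, under 4.40) were left out. A limma 3.58.1 fit in R 4.3.3 of 4 group means over 14 arrays, without a block, gave 5 comparisons, with Benjamini-Hochberg adjustment over 17364 genes, a threshold of 0.05 and 10 residual and 4.06 prior degrees of freedom. The fit was tested on simulated data. The number of arrays limits the precision.

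The 2 arrays of a clone come from the culture of 1 animal, so clones pair them. Same-clone deviations from the group means correlated at 0.16 to 0.62, in each clone above those with any other clone of its genotype. For clone 6 the margin was small, 0.16 against 0.12. A fit with clone as a random block (consensus correlation 0.35) is given where it changes a call. The 4 comparisons share groups and arrays with one another, and the genotype comparisons share the 7 animals.

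The 8 genes, the engulfment lists, the marker lists and the rule for named genes were chosen with earlier results of these data known. The rule named the 8 genes, Cic, the list genes that passed a test (at most 4 by smallest p, otherwise the 1 with the smallest p) and the genes most like Megf10 (5), Mertk (3) and Axl (3). Promoter windows came from RefSeq. The alternatives tried were other probeset summaries, dim filters, normalizations and priors, clone as a block, only the arrays compared, and leaving out each clone. Centring probesets before the median, and leaving out a clone with the block kept, were chosen after seeing the data.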

Additional observations from a re-analysis of the deposited data

Results flagged for a closer look

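The Mertk level of Cic+/+ clone 1 without EGF, 9.64, stood apart from the other 3 Cic+/+ arrays without EGF, which lay at 8.67, 8.57 and 8.49. The gap to its nearest neighbour was 0.84 of the range of the group, above the critical value for 4 samples. It was 1 of 24 groups of values looked at, and chance marks about 1 in 20. Clone 1 was also the highest Cic+/+ clone for Mertk with EGF, at 9.62.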

How the results depend on the processing

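The count of the 8 genes past the threshold was 1 between genotypes with EGF, a count fixed by how Megf10 was found, and 0 in the other comparisons. With EGF it was 0 with the brightest probeset, 2 with the stricter dim filter and 2 with quantile normalization, and 0 to 1 without 1 clone, also with the replicate block kept. Without EGF it was 1 with probesets above the dim limit, 1 with the replicate block (clone as a random effect), and 0 to 1 without 1 clone, with or without that block. For EGF in Cic+/+ cells it was 1 with the mean over probesets, where Axl passed at -0.60, and 3 with the replicate block as a random or as a fixed effect. Without 1 clone it was 0 in that comparison, and 0 to 3 with the block kept: 3 without clone 1, 5 or 6, 2 without clone 7, 1 without clone 4 and 0 without clone 2 or 3. In Cic-/- cells and for the interaction it was 0 under every alternative run. The block changed no other call of the 8 genes. Over all genes, the counts past the threshold were 55 and 96 between genotypes with and without EGF, 33 for EGF in Cic-/- and 156 in Cic+/+ cells, and 1 for the interaction. They were 83, 173, 70, 256 and 2 with the mean over probesets, and 63, 121, 361, 897 and 7 with the random block. The fixed block gave 519 and 969 for EGF and 3 for the interaction. Centred probesets gave 76 and 282 for EGF, while the stricter dim filter gave 51, the trended prior 50 and the brightest probeset 22 for EGF in Cic-/- cells, and the brightest probeset and the stricter filter 0 for the interaction. Only the arrays compared gave 44 between genotypes without EGF and 3 for EGF in Cic-/- cells. Without 1 clone and without a block the counts lay at 19 to 60, 53 to 125, 0 to 68, 17 to 217 and 1 to 3.

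Signs turned only for differences that passed in no fit, and the cause was not tested. With the mean over probesets, the EGF difference in Cic-/- cells was -0.10 for Mertk and -0.022 for Tyro3, and the Gas6 interaction was -0.040. With the brightest probeset, Mertk was 0.10 and Pros1 -0.048 between genotypes without EGF, the EGF difference of Tyro3 was -0.074 in Cic-/- and 0.14 in Cic+/+ cells, that of Mertk was -0.035 in Cic-/- cells, and the Tyro3 interaction was -0.21. With probesets above the dim limit, the EGF difference of Tyro3 in Cic-/- cells was -0.54, and the interaction was -0.36 for Tyro3, -0.013 for Gas6 and -0.013 for Gulp1. With probesets centred, the EGF difference in Cic-/- cells was -0.080 for Mertk and -0.058 for Tyro3, and the Gulp1 interaction was -0.064. Leaving out 1 clone gave, between genotypes, Pros1 at -0.093 to 0.30 and Abca1 at -0.021 to 0.24 with EGF and Pros1 at -0.096 to 0.29 without. It gave EGF differences in Cic-/- cells of -0.091 to 0.17 for Mertk and -0.14 to 0.33 for Tyro3. It gave interactions of -0.10 to 0.20 for Gas6, -0.060 to 0.33 for Pros1 and -0.14 to 0.20 for Gulp1.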
